A study of Mus musculus with 24 samples.

Results

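The genes described here are 9 subunits of the Polycomb group complexes, Cbx2, Cbx6, Cbx7, Cbx8, Ezh1, Ezh2, Phc1, Phc2 and Jarid2. They were taken by gene symbol, but the list was chosen with earlier results of these data known. Each symbol matched 1 of the 49705 gene rows of the expression table. RNA was sequenced in 24 libraries of polyA RNA from mouse optic vesicle (OV) organoids, free-floating aggregates of embryonic stem cells (ESCs) that form an eye-field epithelium. All groups came from 1 line, Rx-GFP K/I EB5, in which GFP is knocked into the Rax locus so that GFP reports Rax, a homeobox gene of the eye field. The 8 groups of 3 replicates were live single cells on day 0 (labelled as given no treatment), day 1, day 2 and day 3, and GFP-negative and GFP-positive cells on day 4 and day 5. Each sample came from 24 pooled organoids seeded with 4500 cells, and Matrigel, growth factor-reduced, was added to 2% on day 1, after day 0 samples were taken. The labels name a medium with 1.5% KOSR (knockout serum replacement), whereas the study's methods name a growth factor-free medium for these organoids. The GFP-negative gate also took cells with low GFP, day 3 cells were not sorted on GFP, and all results hold for this line only.

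Polycomb proteins keep developmental genes silent through chromatin. Polycomb repressive complex 2 carries Ezh2 or its less active paralog Ezh1, the enzymes that trimethylate histone H3 at lysine 27, and Jarid2 is an accessory subunit of 1 form of that complex. Canonical Polycomb repressive complex 1 holds a Cbx protein, whose chromodomain reads the methyl mark, and a Phc protein, which joins complexes into larger assemblies. Cbx7 is known as the main Cbx of mouse ESCs, and Cbx2 and Cbx8 as the forms of differentiating cells.

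The labels were checked against marker genes. Rax was at 16.9 to 39.2 normalized counts on day 0, 89.3 to 156 on day 3, 946 to 1018 in GFP-negative and 9099.8 to 9967 in GFP-positive cells on day 4, and 412 to 517 and 8075 to 8921 on day 5. The pluripotency gene Nanog fell from 11108 to 16789.8 on day 0 to 50.9 to 78.6 in day 5 GFP-positive cells, so the markers followed the labels. The normalized counts of a library summed to 39849111 at the least and 51587535 at the most. Day 0 replicate 1 stood apart: its rank correlation with the other day 0 libraries was 0.953 and 0.954, against 0.979 to 0.993 between all other replicate pairs. Relative to the mean of the other 2, its median log2 value was 0.33 higher in the 25% of genes with the shortest exons and lower (-0.36) in the 25% with the longest. In this library 7 members were low, most of all Jarid2 (a log2 difference of -1.56), Phc1 (-1.15) and Cbx2 (-1.10), Ezh2 was high (0.63) and Phc2 was at 0.01, so changes from day 0 are also given without it where they rest on it. All groups share an estimate of the spread, and without this library more members passed also in comparisons that do not include day 0.

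The start regions of 4 genes are shown because 2 of them fell, Cbx7 and Phc1, and 2 rose, Cbx8 and Phc2. No window was found for Cbx2, so Cbx8 stands beside Cbx7 here. They are RefSeq promoter windows of GRCm38.p6 (250 bases before to 50 after the start), read 5′ to 3′ on the gene's strand, with every CG dinucleotide in capitals. A window was found for 8 of the 9 members.
Cbx7 (chr15:79932597-79932896, minus strand): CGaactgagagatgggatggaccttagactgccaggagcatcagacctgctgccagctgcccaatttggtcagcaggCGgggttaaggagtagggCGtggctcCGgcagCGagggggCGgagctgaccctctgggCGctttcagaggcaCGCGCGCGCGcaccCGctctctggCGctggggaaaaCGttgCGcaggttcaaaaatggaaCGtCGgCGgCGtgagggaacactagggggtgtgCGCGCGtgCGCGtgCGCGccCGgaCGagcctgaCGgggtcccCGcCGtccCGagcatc
Phc1 (chr6:122340178-122340477, minus strand): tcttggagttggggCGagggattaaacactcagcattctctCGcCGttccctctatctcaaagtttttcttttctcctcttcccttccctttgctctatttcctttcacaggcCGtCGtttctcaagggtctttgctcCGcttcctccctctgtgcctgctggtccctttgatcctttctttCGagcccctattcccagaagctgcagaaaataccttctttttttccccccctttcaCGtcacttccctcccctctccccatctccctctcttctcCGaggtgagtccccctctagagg
Cbx8 (chr11:119040864-119041163, minus strand): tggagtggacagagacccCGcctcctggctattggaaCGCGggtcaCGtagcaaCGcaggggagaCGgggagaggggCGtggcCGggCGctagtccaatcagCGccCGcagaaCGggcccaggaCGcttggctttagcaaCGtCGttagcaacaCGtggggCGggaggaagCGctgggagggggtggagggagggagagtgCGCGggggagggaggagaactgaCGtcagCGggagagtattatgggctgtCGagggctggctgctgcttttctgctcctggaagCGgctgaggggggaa
Phc2 (chr4:128654452-128654751, plus strand): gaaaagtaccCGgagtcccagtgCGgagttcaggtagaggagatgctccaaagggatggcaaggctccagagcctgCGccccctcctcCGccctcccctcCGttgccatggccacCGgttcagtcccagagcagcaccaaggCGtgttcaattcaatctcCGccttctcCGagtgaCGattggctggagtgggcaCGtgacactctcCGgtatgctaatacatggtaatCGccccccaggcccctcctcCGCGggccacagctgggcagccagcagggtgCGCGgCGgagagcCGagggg
The Cbx7 window held 33 CG dinucleotides, more than 91.4% of all 32851 windows. Cbx8 held 24 and Phc2 19, against a median of 7 over all windows. Phc1 held 9, the fewest when each member is taken by its window nearest the 5′ end of the gene. Further Phc2 windows, not shown, held 2 and 45. The Cbx7 start used here lies 38473 bp inside the 5′ end of the gene as the table gives it, and the Phc2 start lies at that end.

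Cbx7 fell the most. Its normalized counts in replicates 1 to 3 were 9430.0, 16274 and 16312 on day 0, 8687, 7310.1 and 7560.1 on day 3, 1458, 1612 and 1279 among GFP-positive cells of day 4, and 698, 721 and 728 among those of day 5. GFP-negative cells kept more of it, at 3478, 3414 and 2800.1 on day 4 and 2109, 1887 and 1853 on day 5. Ranked by mean, the groups ran from day 1 through day 0 and day 2 to day 3, then day 4 GFP-negative, day 5 GFP-negative, day 4 GFP-positive and day 5 GFP-positive. From day 2 downwards no group overlapped the next, and day 1 lay above day 2. Day 0 overlapped both through its low replicate 1. The highest group mean was 19.9 times the lowest, the widest span of the members. From day 0 to day 5 GFP-positive the log2 fold change was -4.24 ± 0.15 (SE, n = 3 per group; limma adjusted p = 2.02e-15), and -4.51 without day 0 replicate 1.

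Cbx2, which compacts chromatin as well as reading the mark, moved the other way. It stood at 1064, 2575 and 2014 normalized counts on day 0, 2554, 2619.6 and 2549.8 on day 1, 4068, 3924 and 3641 on day 2 and 5903, 4713 and 4359.6 on day 3. Each group from day 1 to day 3 lay above the one before, apart from an overlap of day 0 with day 1. On day 4 it was at 6205, 6282 and 7134 in GFP-negative and 8344, 8441 and 8053 in GFP-positive cells, and on day 5 at 7687, 6480.4 and 6762 in the GFP-negative and 8225, 7809.5 and 8443 in the GFP-positive gate. GFP-positive libraries lay above GFP-negative ones on both days with no overlap, yet neither difference passed the test (adjusted p = 0.296 and 0.523). The day 4 and day 5 GFP-positive ranges overlapped. The day 0 to day 3 log2 fold change was 1.49 ± 0.20 (adjusted p = 2.67e-06), and 1.12 without day 0 replicate 1.

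Cbx8, a paralog whose gene lies 5034 bp from Cbx2 on chromosome 11, was low and rose late. Its normalized counts were 53.0, 64.0 and 65.7 on day 0, 77.5, 74.4 and 54.3 on day 3, and in the GFP-positive gate 219, 206 and 224 on day 4 and 406, 352 and 303 on day 5. The groups of days 0 to 3 each overlapped the next in order of mean, and every GFP-positive library lay above all of them. GFP-negative libraries spread widely on day 4, at 76.6, 124 and 203, and stood at 313, 204 and 229 on day 5, overlapping the day 4 GFP-positive group. The day 3 to day 4 GFP-positive log2 fold change was 1.66 ± 0.28 (adjusted p = 6.21e-05).

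Cbx6 followed neither course. It stood at 2088, 4221 and 4117 on day 0, had its highest mean on day 2, at 5738, 5326 and 4979.8, and was at 4868, 3779 and 4039 on day 3. In all 4 sorted groups it then lay between 2009 and 2774 normalized counts, with each neighbour in the order overlapping the next. It fell from day 3 to day 4 by 0.88 ± 0.18 on the log2 scale in GFP-positive and by 0.89 ± 0.18 in GFP-negative cells. Its day 0 to day 5 GFP-positive change did not pass (log2 fold change -0.39, adjusted p = 0.0720), but did without day 0 replicate 1 (-0.72, adjusted p = 1.06e-05). Exons of Cbx6 share 563 bases with Npcd on the same strand and those of Cbx7 share 100 with Apobec3 on the opposite strand, and strand use in the counting is not given in the sources used here, so some reads of both are uncertain.

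**Figure D1:**
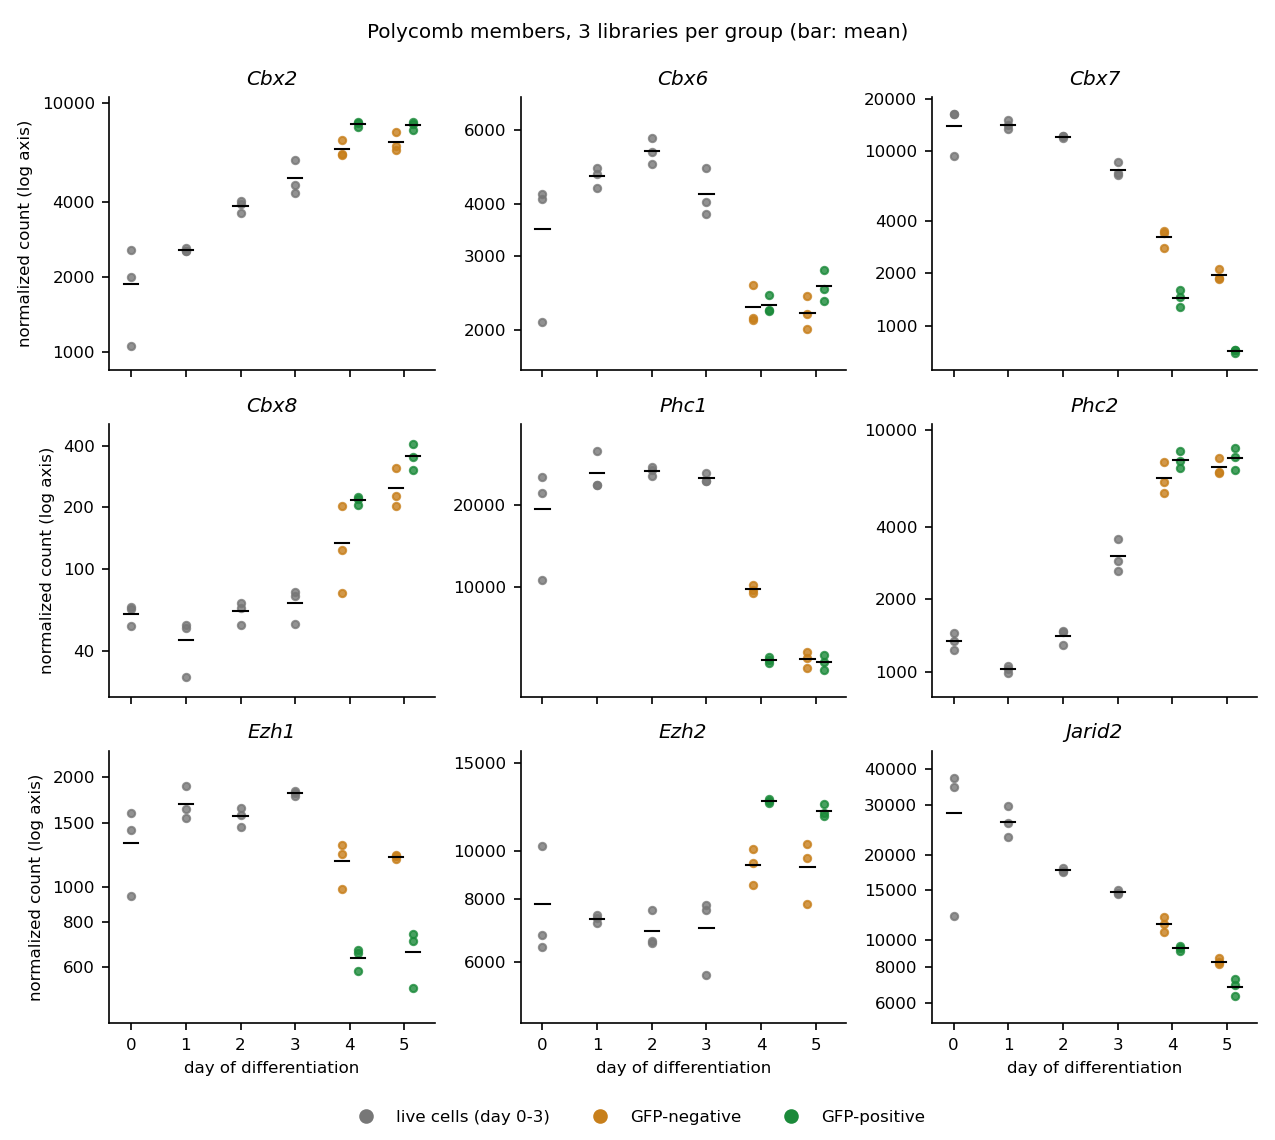
Normalized counts of the 9 members (y axis, logarithmic, with its own range in each panel) by day of differentiation (x axis), 1 point per library and a bar at the mean of 3. Grey points are live cells, orange GFP-negative and green GFP-positive cells; Cbx7, Phc1 and Ezh1 sit low in GFP-positive cells on day 4, and day 0 replicate 1 is the lone outlying day 0 point in most panels.

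Levels of different genes were compared after division by exon length, which gives normalized counts per kb of exon. Cbx7 stood at 2159 ± 611 per kb on day 0 (SD, n = 3) against 110.3 ± 2.45 among GFP-positive cells of day 5, while Cbx2 went from 443 ± 179.5 to 1917 ± 75.7. Among the 4 Cbx members (Cbx2, Cbx6, Cbx7, Cbx8), Cbx7 made up 73.7% ± 2.44 of the summed level per kb on day 0, 56.7% ± 1.05 on day 2, 43.3% ± 1.66 on day 3, and only 4.67% ± 0.211 at the end, among the GFP-positive cells of day 5. Cbx2 went from 14.7% ± 2.15 to 27.6% ± 0.547, 41.8% ± 1.90 and 81.1% ± 1.38 in the same groups. Their ranges overlapped on day 3, so neither was shown to be the larger there, and Cbx2 led in every later group. In day 0 replicates 2 and 3 Cbx7 stood at 71.1% and 74.1% and Cbx2 at 17.1% and 13.9%. With the longest coding transcript as the length, Cbx7 still led on day 3, at 53.1% against 29.9% for Cbx2, and Cbx2 led from day 4 on. Cbx8 held 4.08% ± 0.583 in day 5 GFP-positive cells, the highest share it reached.

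**Figure D2:**
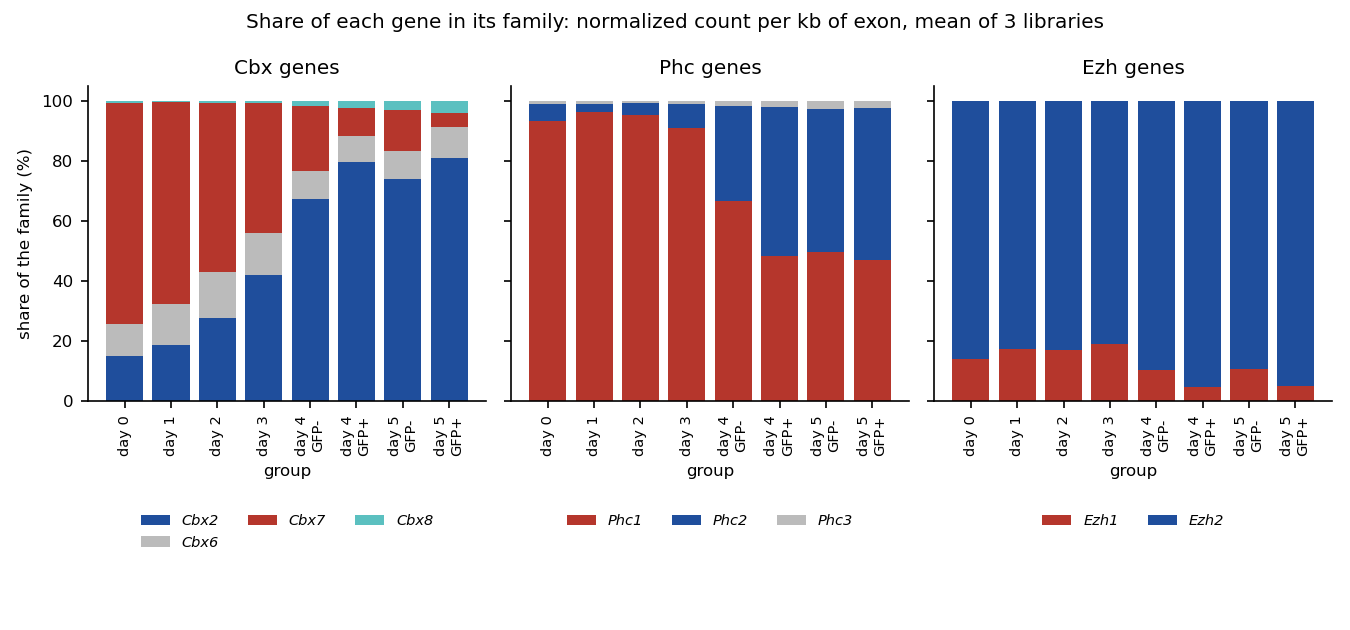
Stacked bars of the share (y axis, % of the family's summed normalized count per kb of exon, mean of 3 libraries) of each gene among the 4 Cbx members and in the Phc and Ezh families, for the 8 groups on the x axis. Cbx7 gives way to Cbx2 across day 3, Phc2 reaches 50.6% of the Phc genes in day 5 GFP-positive cells, and Ezh2 holds at least 81.0% of the Ezh genes throughout.

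The ratio of Cbx2 to Cbx7 within a library is free of library scaling. Its log2 value, on normalized counts not divided by length, was -3.15 to -2.66 on day 0, -2.56 to -2.40 on day 1, -1.71 to -1.60 on day 2 and -0.79 to -0.56 on day 3. Each group lay above the one before with no overlap. It was 0.83 to 1.35 in GFP-negative and 2.39 to 2.65 in GFP-positive cells on day 4, and 1.78 to 1.87 and 3.43 to 3.56 on day 5. All 8 groups were therefore separate, and day 5 GFP-negative cells lay below day 4 GFP-positive cells. Day 0 replicate 1, low in both genes, was at -3.15, beside -2.66 and -3.02 in the others.

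**Figure D3:**
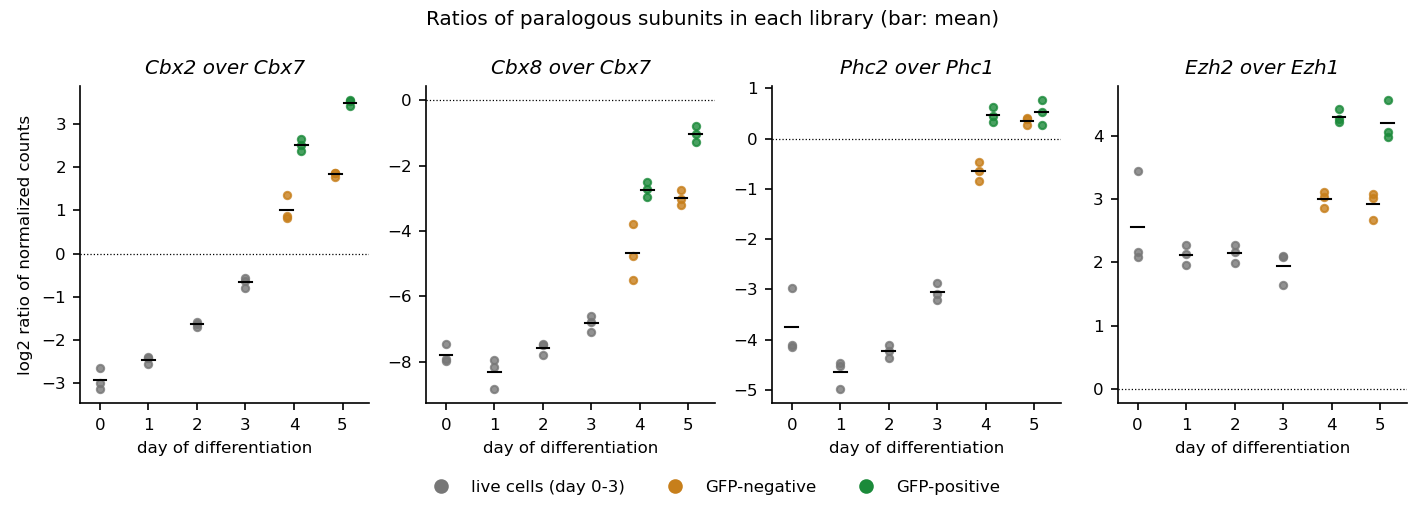
Log2 ratio of normalized counts (y axis, own range in each panel) of Cbx2 to Cbx7, Cbx8 to Cbx7, Phc2 to Phc1 and Ezh2 to Ezh1 in each library by day (x axis), with a bar at the mean of 3. The mean Cbx2 to Cbx7 ratio goes from -2.94 on day 0 to 3.51 in day 5 GFP-positive cells (green), and on days 4 and 5 each GFP-negative mean (orange) lies below its GFP-positive one.

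The Phc genes also moved in opposite directions. Phc1 was at 10620.0, 25296 and 21956 normalized counts on day 0 and 26068, 24445 and 24295 on day 3. It then dropped to 5327, 5456 and 5568 in day 4 GFP-positive and 9820.2, 9569 and 10236 in GFP-negative cells, with no overlap between these groups or with any earlier one. On day 5 GFP-negative cells, at 5806, 5556 and 5101, overlapped GFP-positive cells, at 5347, 5703 and 5013. The fall from day 3 to day 4 GFP-positive was 2.19 ± 0.20 on the log2 scale (adjusted p = 1.35e-08), or 4.57-fold. Phc1 lies 366927 bp from Nanog on chromosome 6.

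Phc2 was at 1348, 1457 and 1231 on day 0, above day 1 with no overlap and overlapping day 2. It then stood at 1029, 989.8 and 1064 on day 1, 1479, 1470.5 and 1296 on day 2 and 3553, 2871 and 2613 on day 3, each above the last from day 1. In the sorted groups its libraries lay between 5497 and 8479 and all 4 groups overlapped in order of mean. It rose from day 2 to day 3 by 1.08 ± 0.13 and from day 3 to day 4 GFP-positive by 1.34 ± 0.13 on the log2 scale. Per kb of exon, Phc2 made up 5.56% ± 2.64 of the Phc genes on day 0, 8.20% ± 0.921 on day 3, 31.9% ± 2.96 in GFP-negative cells on day 4, and 47.4% to 52.7% in the GFP-positive libraries of that day. In day 0 replicates 2 and 3 the Phc2 share was 4.11% and 3.97%. Phc1 and Phc2 overlapped as shares in day 4 and day 5 GFP-positive cells, so that neither was shown to be the larger. By coding transcript length Phc2 held 58.9% in day 5 GFP-positive cells. Phc3, the third paralog, never passed a mean of 2.70% by exon length.

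Of the methyltransferase genes, Ezh1 was low in GFP-positive cells. It stood at 943, 1596 and 1428 normalized counts on day 0, 1805, 1777 and 1832 on day 3, 1302, 1232 and 985 in day 4 GFP-negative cells and 586, 669 and 656 in day 4 GFP-positive cells. On day 5 it was at 1223, 1214 and 1192 in the GFP-negative and 710.4, 742 and 526 in the GFP-positive gate, and on both days the GFP-positive libraries all lay below the GFP-negative ones. The gate differences passed, at -0.87 ± 0.16 and -0.89 ± 0.16 on the log2 scale (adjusted p = 0.000446 and 0.000314). Its rise from day 0 to day 3 (0.48, adjusted p = 0.0185) was lost without day 0 replicate 1 (0.26, adjusted p = 0.119).

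Ezh2 varied least, by 1.82 times between group means. It was at 10241, 6783 and 6423 on day 0, 5646, 7635 and 7800.0 on day 3, and in the GFP-positive gate 12579, 12488 and 12686 on day 4 and 11942, 11765 and 12443 on day 5. GFP-negative cells were at 9458, 10078 and 8550.1 on day 4 and 7825, 10306 and 9704 on day 5, and every GFP-positive library lay above every other library of the series. It rose from day 3 to day 4 GFP-positive by 0.86 ± 0.15 on the log2 scale (adjusted p = 9.14e-05). Per kb of exon, Ezh2 made up 86.1% ± 5.44 of the Ezh pair on day 0, 81.0% ± 2.86 on day 3, then 95.7% ± 0.296 among GFP-positive cells of day 4. In day 0 replicates 2 and 3 its share was 82.6% and 83.4%. Its exons share 174 bases with Gm26625 on the opposite strand.

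Jarid2 fell from day 0 to day 5 GFP-positive by 1.87 ± 0.25 on the log2 scale (adjusted p = 1.09e-06), or -2.39 as a log2 fold change without day 0 replicate 1. It stood at 12114, 37079.5 and 34588 on day 0, 23087, 29583 and 25739.9 on day 1, 17559, 17961 and 17289 on day 2 and 14596, 15033 and 14516 on day 3. Apart from day 0, whose range replicate 1 stretched over those of days 1 to 3, no group overlapped the next lower one. On day 4 it was at 12017, 10650.5 and 11363 in GFP-negative and 9347, 9503 and 9153 in GFP-positive cells, and on day 5 at 8613, 8218 and 8325 in the GFP-negative and 7264, 6936 and 6340.5 in the GFP-positive gate. The day 0 to day 3 log2 fold change was -0.76 ± 0.25 (adjusted p = 0.0161), and -1.28 without day 0 replicate 1 (adjusted p = 2.31e-10). Without day 0 replicate 2 or 3 the call was lost, with Jarid2 at -0.48 and -0.53 (adjusted p = 0.123 and 0.107).

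The day-to-day steps before sorting were tested next. A change was called at an adjusted p under 0.05 over all 21005 genes tested, and all 9 members passed the filter of 10 normalized counts in 3 libraries. From day 0 to day 1 no member passed in limma, while 10% of all genes did. Phc2 came nearest (-0.39, adjusted p = 0.0568, and 0.0650 without day 0 replicate 1). The log2 changes of Cbx2, Cbx6, Ezh1 and Phc1 were 0.54, 0.49, 0.38 and 0.52. Without that library they were 0.18, 0.16, 0.16 and 0.14, and none of them passed. Leaving out day 0 replicate 1, Jarid2 fell (-0.46, adjusted p = 0.00110), against 14% of all genes. From day 1 to day 2 Cbx2 rose by 0.59 ± 0.20 (adjusted p = 0.0427) and Phc2 by 0.46 ± 0.13 (adjusted p = 0.0140) on the log2 scale, against 16.6% of all genes changing. With 1 of the 24 libraries removed at a time, Cbx2 no longer passed in 16 cases, and Phc2 in 3 (without day 1 replicate 2, day 2 replicate 1 or day 2 replicate 2). Without day 0 replicate 1, which is in neither group, the same Cbx2 change had an SE of 0.10 and passed (limma adjusted p = 0.000238). From day 2 to day 3 Phc2 rose (adjusted p = 8.15e-06) and Cbx7 fell by 0.63 ± 0.15 (adjusted p = 0.00825), against 14.4% of all genes changing. These counts, 0, 2 and 2 of 9, were near the share of all genes. Over the whole unsorted course, day 0 to day 3, Cbx2, Phc2 and Ezh1 rose and Cbx7 and Jarid2 fell, 5 of 9, near the 43.6% of all genes. With only the day 0 and day 3 libraries in the fit, Cbx2 and Phc2 passed and the calls of Cbx7, Ezh1 and Jarid2 were lost (adjusted p = 0.0513, 0.160 and 0.224). The median log2 change of the members was 0.34, beside -0.03 over all genes, and 0.08 without day 0 replicate 1.

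The step into GFP-positive cells touched every member. From day 3 to day 4 GFP-positive, Cbx2, Cbx8, Ezh2 and Phc2 rose and Cbx6, Cbx7, Ezh1, Phc1 and Jarid2 fell, 9 of 9, while 37.9% of all genes changed. Cbx7 fell by 2.44 ± 0.15 on the log2 scale (adjusted p = 5.6e-11) and Ezh1 by 1.50 ± 0.16 (adjusted p = 1.54e-07). Jarid2 had the weakest call (log2 fold change -0.66 ± 0.25, adjusted p = 0.0408), and lost it on leaving out any day 3 or day 4 GFP-positive library. Without day 0 replicate 1, which is in neither group, the same change had an SE of 0.079 and a limma adjusted p of 6.71e-07. At the study's stricter thresholds, an adjusted p under 0.001 and a log2 change above 1.5, Cbx8 rose and Cbx7, Ezh1 and Phc1 fell, against 3.33% and 7.36% of all genes. The members' median was -0.66, beside -0.01 over all genes. Into day 4 GFP-negative cells, which share the day 3 libraries, Cbx8 and Phc2 rose and Cbx6, Cbx7, Ezh1 and Phc1 fell, 6 of 9, against 18.5% of all genes. There the Cbx8 call (adjusted p = 0.0337) was lost without day 3 replicate 2, day 3 replicate 3, day 4 GFP-negative replicate 2 or day 4 GFP-negative replicate 3, and the Ezh1 call (adjusted p = 0.00742) without day 4 GFP-negative replicate 3. In bulk RNA, fewer cells of a type and less RNA per cell cannot be told apart.

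The day 4 to day 5 step was tested in each gate. In GFP-positive cells Cbx7 fell further by 1.01 ± 0.15 on the log2 scale (adjusted p = 0.000121). It was the only member to pass, 1 of 9, near the 9.8% of all genes. In GFP-negative cells Cbx7 fell by 0.72 ± 0.15 and Phc1 by 0.85 ± 0.20, and Cbx8 rose by 0.97 ± 0.28, against 10.2% of all genes. The Cbx8 call (adjusted p = 0.0292) was lost without GFP-negative replicate 1 or 2 of day 4 or replicate 1 or 3 of day 5. From day 0 to day 5 GFP-positive, 4 members rose and 4 fell, against 61.4% of all genes, and Cbx6 did not pass. Cbx2 rose 4.61-fold, Phc2 5.71-fold and Cbx8 5.72-fold on the log2(normalized count + 1) scale, whereas Jarid2 fell 3.65-fold and Phc1 3.38-fold. Without day 0 replicate 1 the log2 fold changes were 1.84 for Cbx2, 2.52 for Phc2, 2.42 for Cbx8, -2.39 for Jarid2 and -2.14 for Phc1, against 2.21, 2.51, 2.52, -1.87 and -1.76 with it.

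**Figure D4:**
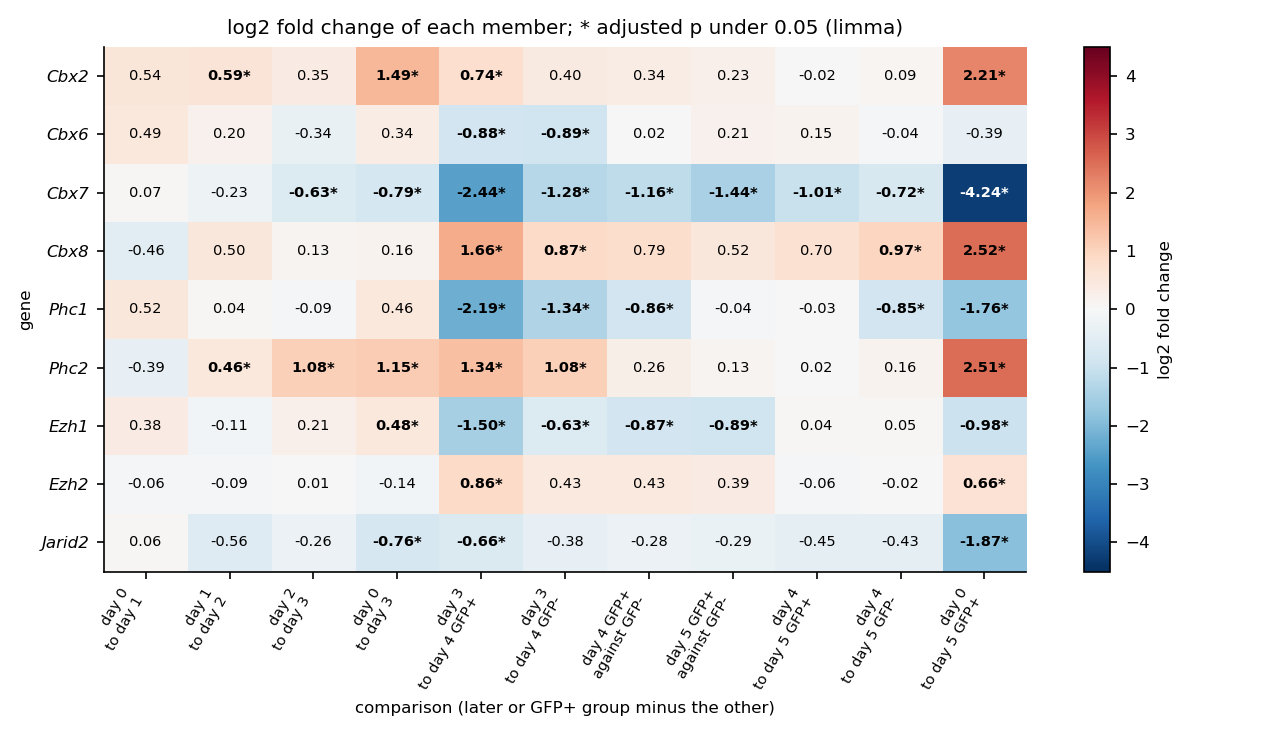
Heat map of the log2 fold change of each member (rows) in the comparisons of the study (columns), with an asterisk at an adjusted p under 0.05. All 9 members carry one from day 3 to day 4 GFP-positive and none does from day 0 to day 1.

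In limma the GFP gate separated Cbx7 and Ezh1 on both days, and Phc1 on day 4 but not on day 5 (-0.035, adjusted p = 0.946). On day 4 Cbx7 was lower in GFP-positive cells by a log2 difference of -1.16 ± 0.15 (adjusted p = 1.05e-05) and Phc1 by -0.86 ± 0.20 (adjusted p = 0.00381), and with Ezh1 3 of 9 members were lower and none higher, while 11.3% of all genes were lower, 4.43% higher and 15.7% either. On day 5 Cbx7 (-1.44 ± 0.15, adjusted p = 4.77e-07) and Ezh1 were lower, while 12.3% of all genes were lower, 3.78% higher and 16% either. Ezh2 was higher in GFP-positive libraries on both days, at 0.43 and 0.39, but did not pass (adjusted p = 0.0559 and 0.0895). Without day 0 replicate 1, which is in neither group, it passed (adjusted p = 0.00664 and 0.0135). Likewise Jarid2 was lower in every GFP-positive library than in every GFP-negative one on both days, at -0.28 and -0.29, and did not pass (adjusted p = 0.550 and 0.515), but passed without that library (adjusted p = 0.0131 and 0.00896). No member passed the limma test of a change in the gate difference between the days (0 of 9, against 1.1% of all genes). Phc1 came nearest, at 0.82 ± 0.28 with an unadjusted p of 0.00796 and an adjusted p of 0.226. Without day 0 replicate 1 that difference passed (adjusted p = 0.00101).

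Markers of other cells moved with the gate. The summed normalized count of 6 pluripotency genes was 13702 to 16412 in GFP-negative and 1205 to 2510.4 in GFP-positive cells on day 4, and 6037 to 7296 and 409 to 539.7 on day 5. That of 4 mesendoderm genes was 5393 to 8029 and 277 to 580.1 on day 4, and that of 4 endoderm genes 1978 to 3216 and 81.0 to 249. The 5 eye field genes went the other way, at 8869 to 10833 and 45893 to 47745. No gene of these lists was at 0 in a whole group, and their part in the members' gate differences was not tested. On day 4 the 4 endothelium genes summed to 948 to 1804 in GFP-negative and 126 to 252 in GFP-positive cells, the 4 surface ectoderm genes to 6063 to 10322 and 4293 to 4893, and the 4 neural genes to 7343 to 7973 and 11196 to 11548. On day 5 the neural sums overlapped, at 9531 to 11389 and 8862 to 10208, whereas those of the endothelium genes were 1394 to 2075 and 726 to 891 and those of the surface ectoderm genes 6563 to 10523 and 2950.2 to 3154. The 12 proliferation genes summed to 225271 to 227460.0 on day 3, then 231962 to 233084 among GFP-positive cells of day 4, and 0 of them rose and 1 fell in that step, in which Ezh2 rose. On day 5 they summed to 177169 to 190201 in GFP-negative and 212179 to 224793 in GFP-positive cells, with no overlap, and moved with the Ezh2 gate difference. Of the 12, 0 passed that test with all libraries, and 6 were higher in GFP-positive cells without day 0 replicate 1, the fit in which Ezh2 passed. The part of proliferation in the Ezh2 values was not tested.

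The other Polycomb genes, 30 in 3 lists, were counted in the same fits. From day 0 to day 5 GFP-positive, 7 of 9 other subunits of complex 2 fell and none rose, with a median of -1.33 beside -0.06 over all genes, of which 32.1% fell and 29.3% rose. With day 0 replicate 1 left out, 8 fell and the median was -1.20. Among them Suz12, a core subunit, fell by 1.54 and Eed, which binds the methyl mark, by 1.33 on the log2 scale. Of the 7 other canonical complex 1 subunits 5 rose from day 3 to day 4 GFP-positive and none fell, with a median of 0.54 beside -0.01 over all genes, of which 17.1% rose and 20.9% fell. From day 0 to day 5 GFP-positive 3 of the 7 rose and none fell, against 61.4% of all genes passing. Without day 0 replicate 1, 3 rose and 2 fell, against 64.8%. Into day 4 GFP-negative cells 1 rose, against 18.5% of all genes passing, or 3 without that library, against 26.5%. Those that rose into GFP-positive cells included the ubiquitin ligases Ring1 (1.00) and Rnf2 (0.46) and their partner Bmi1 (0.91). Eed, Suz12 and Rnf2 share 261, 178 and 158 exonic bases with genes on the opposite strand. Of the 14 variant complex 1 subunits 4 rose and 5 fell from day 0 to day 5 GFP-positive, against the 61.4% of all genes that passed, with Bcorl1 at 2.32 and Rybp at -2.11. Without day 0 replicate 1 these counts were 3 and 9, against 64.8% of all genes passing, with a median of -0.68, and Bcorl1 was at 1.61 and Rybp at -2.39. Of 6 genes of opposing enzymes 2 rose, Bap1 (0.52) and Asxl3 (3.30), and 1 fell, Asxl2 (-0.90). Leaving out that library, 2 rose and 3 fell, and the median of the list went from 0.31 to -0.15, with Asxl2 at -1.50. Of the 3 HP1 Cbx genes, which read a different methyl mark, Cbx5 rose (0.70), Cbx1 fell (-0.43) and Cbx3 did not pass (-0.11). Without that library Cbx5 was at 0.40, Cbx1 at -0.41 and Cbx3, turned in sign and not past the test, at 0.38.

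Leaving out day 0 replicate 1 changed how many members passed. Of 9 members, 1 passed from day 0 to day 1 (14% of all genes), 3 from day 1 to day 2 (24.3%), 5 from day 2 to day 3 (24.3%) and 4 from day 0 to day 3 (50.2%). All 9 passed from day 3 to day 4 in the GFP-positive gate (46.4%) and in the GFP-negative gate (26.5%), and from day 0 to day 5 GFP-positive (64.8%). The gate gave 7 on day 4 (22.4%) and 4 on day 5 (22.7%), where Cbx2, Cbx8 and Ezh2 were higher in GFP-positive cells on day 4 and Ezh2 on day 5. Cbx7, Ezh1 and Jarid2 were lower on both days and Phc1 on day 4. From day 4 to day 5 the GFP-positive gate gave 2 (15.4%) and the GFP-negative gate 4 (18.1%), Jarid2 falling in both, and 1 for the change of the gate difference (3.14%).

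Phc3 and Pcgf2, a paralog of Bmi1, did not pass from day 3 to day 4 GFP-positive, at -0.12 and 0.03 on the log2 scale. Other listed genes past the stricter thresholds in some comparison were, each with its log2 change from day 0 to day 5 GFP-positive, Phf19 (-1.91, and -2.45 without day 0 replicate 1), Epop (-1.94, and -2.31 without day 0 replicate 1), Auts2 (0.89, and 0.23 without day 0 replicate 1), Pcgf5 (-1.81, and -1.49 without day 0 replicate 1), Yaf2 (1.75, and 2.35 without day 0 replicate 1). Without that library Auts2 no longer passed (adjusted p = 0.166). Auts2 was highest on day 3, at 5103, 5676 and 5805 normalized counts, having risen from day 0 by 2.82 ± 0.32 on the log2 scale (2.15 without that library) and then fallen into day 4 GFP-positive cells by 1.29 ± 0.32.

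**Figure D5:**
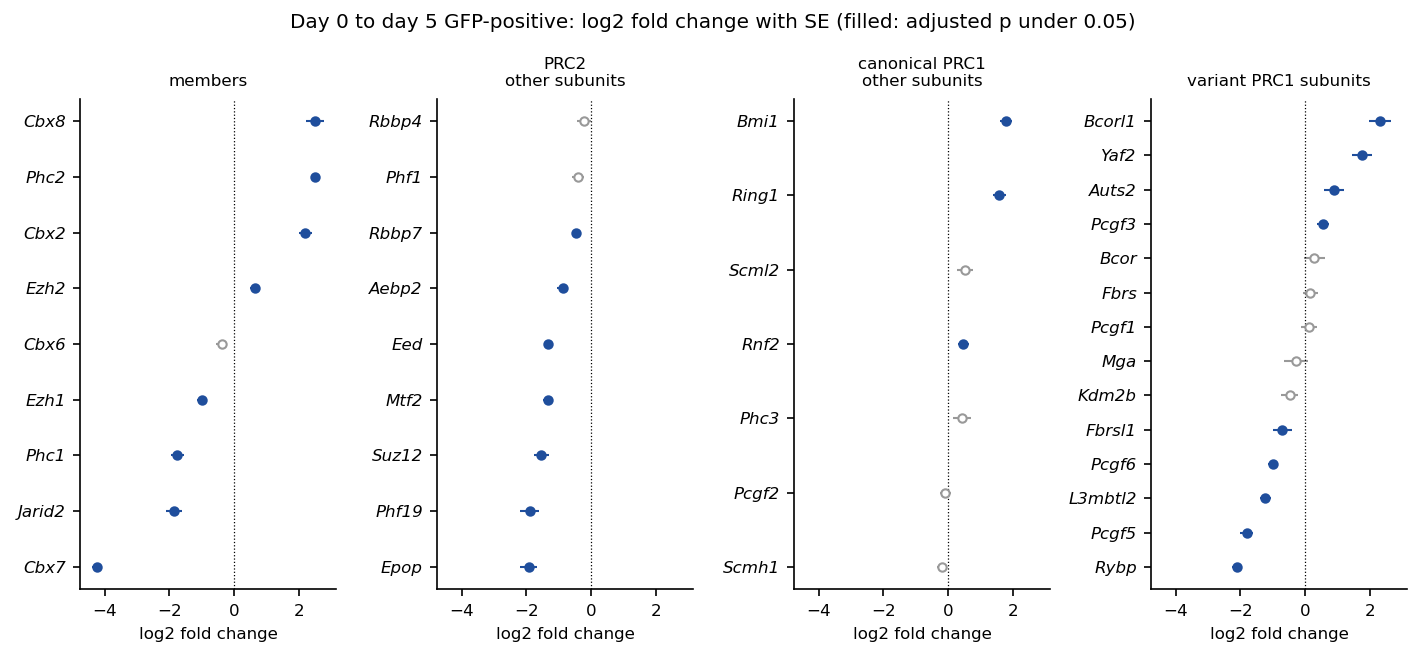
Log2 fold change with its SE (x axis) of the members and the other Polycomb subunits (rows, by list) from day 0 to day 5 GFP-positive, filled where the adjusted p is under 0.05. The other complex 2 subunits lie at or below 0, and Cbx7 is at -4.24.

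Across the 24 libraries, which share groups, the genes whose log2 profile was most like a member's were Bin2 and L1td1 for Cbx7 (Pearson r = 0.993 for both), Bcl9 and Ttyh3 for Cbx2 (0.991 for both), Six5 and Tmcc2 for Phc2 (0.989 for both) and Jade2 and Tor3a for Phc1 (0.977 and 0.973). For Jarid2 they were Atg13 and Frrs1 (0.980 and 0.979), for Cbx8 Abcg4 and Mapkapk2 (0.963 and 0.960), for Cbx6 Pik3cd and Ston2 (0.962 and 0.948), for Ezh1 Fam83b and Rasgrp4 (0.949 and 0.946) and for Ezh2 Arl6ip6 and Bmp2k (0.946 and 0.943). Of 14428 genes, 360 had an r over 0.95 with Cbx7, 344 with Phc2 and 165 with Cbx2, but none with Ezh1 or Ezh2. Between members, r was 0.933 for Cbx7 with Phc1, -0.943 for Cbx7 with Cbx8 and -0.895 for Ezh1 with Ezh2. These values are descriptions over 8 groups of libraries and not tests.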

How the data were processed

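Per the submitters' processing notes, the authors made the values with kallisto 0.43.1 and DESeq2 normalization on mm10, and the authors deposited a normalized signal per gene and library. Depth is not known, since 45.8% to 76.9% of low values were whole within 0.1. The authors' own calls in the table were not used. Strand use was not given in the sources used here. Genes with 10 normalized counts in 3 libraries (21005) were fitted as log2(normalized count + 1) with limma 3.58.1 in R 4.3.3, all 24 libraries together, with a mean trend and Benjamini-Hochberg adjustment; the median residual SD was 0.308. Replicates are pools of organoids, so p-values measure the spread between pools. Members and gene lists were chosen with earlier results of these data known. Named genes were the members, 7 other subunits whatever their values, the HP1 Cbx genes, other listed genes past the study's thresholds in a comparison, and for each member the 2 genes of highest Pearson r with a mean of at least 50; Bap1, Asxl2 and genes sharing exons were named after their values were seen. On simulated data for day 0 to day 3 over 21005 genes, 39% of 100 genes changed by log2 1 and 74% of 100 changed by log2 2 were recovered. Only these genes were changed there, against 43.6% of all genes called in the data, so these rates do not carry over to the real tests. One item of the fixed lists is not reported here and is left out of counts and shares. Alternatives were other filters, pseudocounts, scalings, fits and left-out libraries.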

Additional observations from a re-analysis of the deposited data

How the results depend on the processing

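Counts of members that passed, on leaving out each library in turn, ranged 0 to 4 for day 0 to day 1, 0 to 3 for day 1 to day 2, 2 to 5 for day 2 to day 3, 4 to 6 for day 0 to day 3, 8 to 9 for day 3 to day 4 GFP-positive, 4 to 9 for day 3 to day 4 GFP-negative, 3 to 7 for day 4 GFP-positive against GFP-negative, 2 to 4 for day 5 GFP-positive against GFP-negative, 1 to 2 for day 4 to day 5 GFP-positive, 2 to 4 for day 4 to day 5 GFP-negative, 8 to 9 for day 0 to day 5 GFP-positive, 0 to 1 for the change of the gate difference from day 4 to day 5. Log2 values of members that changed sign on leaving out a library ranged as follows; none had passed with all libraries, and Jarid2 from day 0 to day 1 passed as a fall without day 0 replicate 1. For day 0 to day 1 they were Cbx7 -0.20 to 0.20, Ezh2 -0.19 to 0.15, Jarid2 -0.46 to 0.35. For day 1 to day 2 they were Phc1 -0.034 to 0.17. For day 2 to day 3 they were Ezh2 -0.072 to 0.16. For day 0 to day 3 they were Ezh2 -0.26 to 0.075. For day 4 GFP-positive against GFP-negative they were Cbx6 -0.030 to 0.11. For day 5 GFP-positive against GFP-negative they were Phc1 -0.087 to 0.011. For day 4 to day 5 GFP-positive they were Cbx2 -0.047 to 0.0097, Ezh1 -0.058 to 0.19, Phc1 -0.074 to 0.019, Phc2 -0.050 to 0.10. For day 4 to day 5 GFP-negative they were Cbx6 -0.11 to 0.044, Ezh1 -0.067 to 0.14, Ezh2 -0.10 to 0.099. For the change of the gate difference from day 4 to day 5 they were Cbx8 -0.62 to 0.079, Ezh1 -0.11 to 0.14, Ezh2 -0.16 to 0.037, Jarid2 -0.059 to 0.039. Under quantile normalization, Jarid2 (day 0 to day 1) was -0.030, Phc1 (day 1 to day 2) was -0.0015, Phc1 (day 2 to day 3) was 0.022, Ezh2 (day 0 to day 3) was 0.0081, Cbx6 (day 4 GFP-positive against GFP-negative) was -0.012, Ezh1 (day 4 to day 5 GFP-positive) was -0.031, Ezh2 (day 4 to day 5 GFP-negative) was 0.076. Under scaling to the same total, Cbx6 (day 4 to day 5 GFP-negative) was 0.059, Ezh2 (day 4 to day 5 GFP-negative) was 0.085. Under filter of 50 in 3 libraries, members that passed numbered 1 for day 0 to day 1. Under groups compared only, members that passed numbered 4 for day 1 to day 2, 2 for day 0 to day 3, 6 for day 4 GFP-positive against GFP-negative, 4 for day 5 GFP-positive against GFP-negative, 3 for day 4 to day 5 GFP-positive, 1 for change of the gate difference from day 4 to day 5. All-gene numbers of that fit are not given here for GFP-positive against GFP-negative, so no rise particular to the members is shown. Under no filter on low values, members that passed numbered 1 for day 1 to day 2. Under replicate block, members that passed numbered 1 for day 1 to day 2. Under scaling to the same total, members that passed numbered 1 for day 1 to day 2. Under study thresholds, members that passed numbered 0 for day 1 to day 2, 0 for day 2 to day 3, 0 for day 0 to day 3, 4 for day 3 to day 4 GFP-positive, 0 for day 3 to day 4 GFP-negative, 0 for day 4 GFP-positive against GFP-negative, 0 for day 5 GFP-positive against GFP-negative, 0 for day 4 to day 5 GFP-positive, 0 for day 4 to day 5 GFP-negative. Values of same-numbered libraries, after removal of group means, correlated weakly between the gates. Pearson r was -0.108, 0.0227 and -0.101 on day 4 and 0.00792, -0.075 and 0.147 on day 5. These values cannot show that the samples were unpaired. The methods describe both gates of a day as sorted from the same samples, whereas the main fits treat them as independent. With the replicate block Cbx2 from day 1 to day 2 had an adjusted p of 0.0555, and the block kept 40 of 41 passed values. The cause of these changes was not tested. Quantile and total scaling moved the median of all genes from day 0 to day 5 GFP-positive by 0.148 and 0.145. No value that passed with all libraries changed direction under these alternatives. With only the compared groups in the fit, all genes called numbered 78 for day 0 to day 1 (2105 with all groups), 6421 for day 1 to day 2 (3480 with all groups), 4683 for day 2 to day 3 (3035 with all groups), 4981 for day 0 to day 3 (9164 with all groups), 3281 for day 4 to day 5 GFP-positive (2059 with all groups), 727 for change of the gate difference from day 4 to day 5 (231 with all groups).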
